A study of Mus musculus with 3 samples.

Results

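Transcripts of 41 genes that take glucose to pyruvate and lactate, run the pentose phosphate pathway or admit pyruvate to mitochondria were measured in stimulated mouse macrophages. The genes were given by name, not by their level, and cover glucose transporters, the enzymes of each glycolytic step, lactate dehydrogenases and monocarboxylate transporters, pentose phosphate enzymes, the mitochondrial pyruvate carrier, pyruvate dehydrogenase with its kinases, and Hif1a. All 41 were found among the 55536 gene entries of the deposited tables. They, and all further lists used here, were chosen with earlier results of these data known. The cells were primary macrophages grown from bone marrow of C57BL/6J mice, and RNA with a poly(A) tail was sequenced. There was 1 group of 3 libraries, biological replicates 1, 2 and 3, each kept at 100 ng/mL of the stimulus for 480 minutes. Its identity is uncertain, because one label field gives lipid A and another lipoprotein A. Neither sex nor age was recorded, and the labels give the 3 biosamples 1 donor entry, so the spread between libraries may be partly technical. Unstimulated cells were not analysed here, so no value here is a response to the stimulus.

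The 3 libraries held 26.6e6, 34.3e6 and 48.4e6 expected counts on gene entries. All 8 macrophage markers examined were detected. Markers of T cells, B cells, erythroid cells and fibroblasts were not, with 0 detected in each list. Of the 11 neutrophil markers, 10 were highest in replicate 2 and Cxcr2 was at 0.03 TPM in both replicates 2 and 3, and the list stood there at a summed 428 TPM (transcript abundance corrected for transcript length and library size) against 28.0 and 25.2 in replicates 1 and 3. Of these 11, 3 were detected in all libraries. Replicate 2 also differed from the others in many of the 41 genes, so values are given per library.

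Glycolysis splits glucose into pyruvate in the cytosol, with a net gain of ATP, and regenerates the NAD+ it needs by reducing pyruvate to lactate. Many of its steps have several isozymes, encoded by separate genes that differ in affinity, regulation and tissue. The pentose phosphate pathway branches off after the first phosphorylation and yields NADPH and ribose. Macrophages activated through Toll-like receptors are known for high glucose use and lactate release, and hypoxia-inducible factor HIF-1 is a known transcriptional regulator of these genes.

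Nearly all of the 41 genes were expressed. Counting a gene as detected at 1 TPM or more in 3 of 3 libraries, 37 of 41 were detected, against 17.9% of all gene entries. Of the 41, 15 had a mean of at least 100 TPM, 14 a mean of 10 to 100, 8 a mean of 1 to 10 and 4 a mean below 1. Together they held 5524, 6187 and 5654 TPM in replicates 1, 2 and 3, 5788 ± 351 on average (SD, n = 3). The highest were Gapdh, Hk3 and Slc2a6, and the 4 not detected were Slc2a3, Eno3, Pdk2 and Pdk4. In bulk RNA, few cells carrying a transcript and little of it in each cell cannot be told apart.

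**Figure D1:**
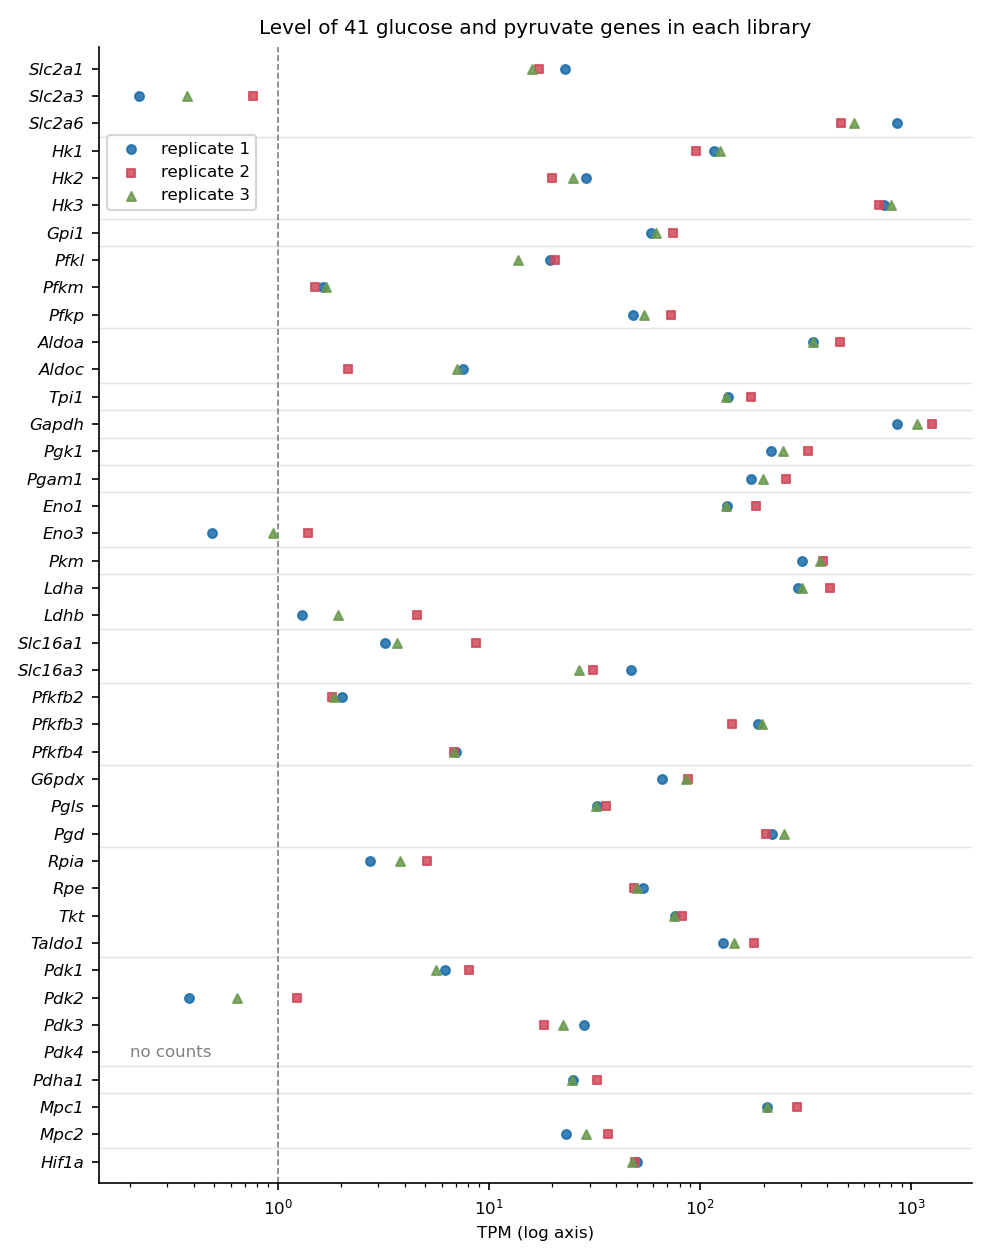
TPM of each of the 41 genes (log axis) in replicates 1 (circles), 2 (squares) and 3 (triangles), grouped by step with grey lines and with the 1 TPM detection minimum dashed. Most isozyme families had 1 member far above the others in every library, and Pdk4 had no counts.

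Summed over the listed isozymes, transcript levels were uneven along the path. From uptake to lactate, the 12 steps were set in order of mean summed TPM, and neighbours were called apart when one was higher in 3 of 3 libraries and the mean log2 ratio exceeded 2 SD. With 1 group of 3 libraries the smallest two-sided exact sign-flip p is 0.25, so no p-value is given here. Glyceraldehyde-3-phosphate dehydrogenase was highest, at 1060.1 ± 199.8 TPM (SD, n = 3), and hexokinases followed at 886 ± 69.1 TPM. These 2 were not apart, since hexokinases were the higher in replicate 1. In a second deposited quantification, made without an alignment, the hexokinases came first, at 763 ± 75.9 TPM against 702 ± 207.5 TPM for glyceraldehyde-3-phosphate dehydrogenase, so the top rank depended on the quantification. The 3 listed glucose transporters reached 637 ± 209.8 TPM, aldolases 387 ± 62.9, pyruvate kinase 351 ± 41.3, and lactate dehydrogenases 338 ± 67.0, again without a neighbour apart. Phosphoglycerate kinase, phosphoglycerate mutase and the enolases came next, each apart from the step above it. Triose-phosphate isomerase was not apart from the enolases. These 2 calls rested on the listed enolases, Eno1 and Eno3. With the further isozymes examined, Eno2 among them, the enolases reached 185 ± 23.7 TPM. They were then apart from triose-phosphate isomerase, by 0.33 ± 0.04 on the log2 scale, but not from the mutase, which exceeded them by 0.20 ± 0.15.

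The 2 lowest steps were consecutive ones near the start. Phosphofructokinase, the committed step of glycolysis, held 69.1, 94.7 and 69.7 TPM over its 3 isozymes in replicates 1, 2 and 3. Glucose-6-phosphate isomerase held 58.3, 74.5 and 61.6 TPM. Triose-phosphate isomerase, the next step up in the order, exceeded the phosphofructokinases by 0.93 ± 0.04 on the log2 scale (SD, n = 3). The phosphofructokinases exceeded the isomerase by 0.26 ± 0.08, so all 3 were apart. Of the 11 neighbouring pairs in this order, 5 were apart and 6 were not. Phosphofructokinase and the isomerase were the lowest 2 steps, and apart, with the further isozymes and in the second quantification too. A transcript level is not an enzyme activity, and neither protein nor flux was measured.

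**Figure D2:**
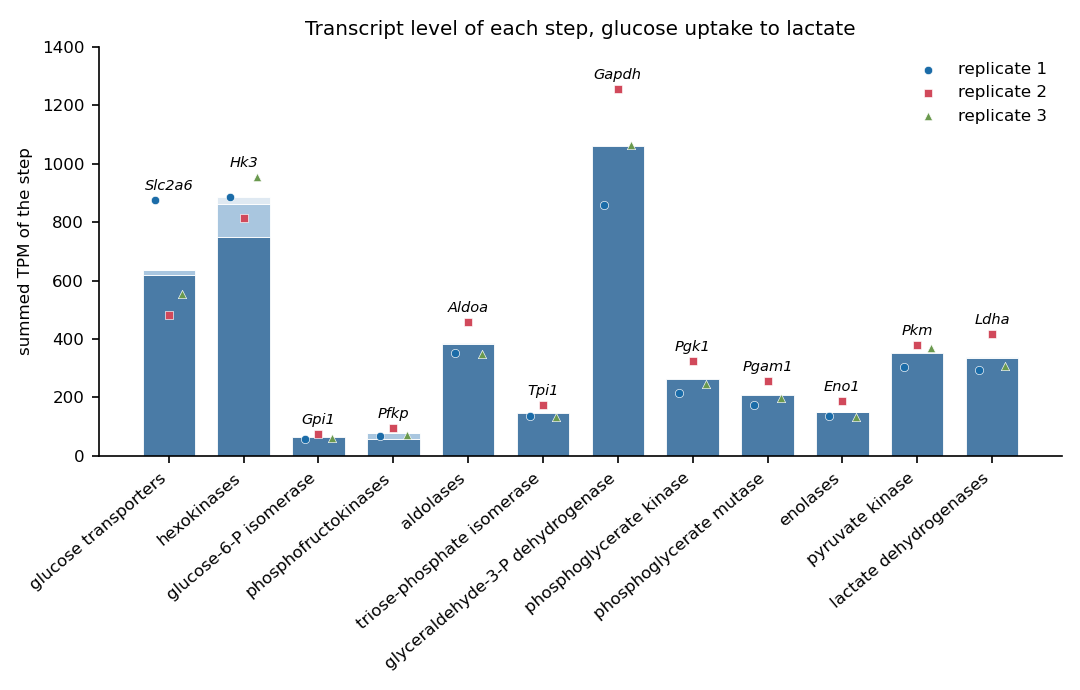
Summed TPM of each of 12 steps from glucose uptake to lactate, with bars for the mean of 3 libraries stacked by listed isozyme (darkest for the leading one, named above) and points for the 3 library sums. Glyceraldehyde-3-phosphate dehydrogenase and hexokinases stand highest, and glucose-6-phosphate isomerase and phosphofructokinases lowest.

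Slc2a6 was the leading glucose transporter. It encodes GLUT6, a transporter found on lysosomal membranes, and its level was 853, 465 and 537 TPM in replicates 1, 2 and 3 (ENSMUSG00000036067.12, chr2:27021363-27027998, minus strand, mm10). Slc2a1, which encodes the widely expressed plasma-membrane transporter GLUT1, stood at 22.8, 17.3 and 15.9 TPM. Both were highest in replicate 1, and every Slc2a6 value lay above every Slc2a1 value. The log2 ratio was 5.01 ± 0.25 (SD, n = 3), or 32.2-fold, and Slc2a6 held 96.9% ± 0.574 of the summed TPM of the 3 listed transporters. Slc2a3, the high-affinity transporter GLUT3, had 0.22, 0.76 and 0.37 TPM from 15.0, 70.0 and 45.0 expected counts and was not detected. Of 8 further sugar transporter genes examined, Slc2a9 and Slc2a8 had means of 3.99 ± 0.445 and 2.86 ± 0.68 TPM. Slc2a2, Slc2a4, Slc2a5, Slc2a10, Slc2a12 and Slc2a13 had means under 1 TPM.

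Hk3 led the hexokinases, which trap glucose in the cell as glucose 6-phosphate. Hk3, the hexokinase typical of myeloid cells, stood at 742, 700.3 and 805 TPM in replicates 1, 2 and 3 (ENSMUSG00000025877.14, chr13:55005985-55021385, minus strand, mm10). Hk1, the broadly expressed isozyme that docks on mitochondria, had 116, 95.7 and 124 TPM. Hk2, the isozyme known from muscle and from cells with high glycolysis, had 28.8, 19.9 and 25.1 TPM. The 3 genes kept the same order in every library without overlap. Hk3 exceeded Hk1 by 2.75 ± 0.11 on the log2 scale, and Hk1 exceeded Hk2 by 2.19 ± 0.16. Hk3 also varied little, its highest library being 1.15 times its lowest. Adpgk, an ADP-dependent glucose kinase, had 4.04 ± 1.60 TPM, and Hkdc1 had a mean under 1 TPM.

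The order of Hk1 and Hk2 held in both deposited quantifications, but the level of Hk2 did not. The first quantification rests on a transcriptome alignment. Over all detected genes the median log2 difference of the second from the first was -0.23 (mean of the 3 library medians). For Hk2 it gave 13.4, 13.1 and 13.5 TPM, a log2 difference of -0.86. In the first, a short transcript without a coding sequence, Hk2-202 of 594 bases, held 37.8, 34.2 and 38.8% of the gene's TPM, and in the second it held 0% in each library. The coding transcript Hk2-201 alone had 17.9, 12.9 and 15.4 TPM in the first quantification. Hk2 transcripts were singled out after their values were seen.

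Pfkp was the leading phosphofructokinase, by the smallest margin among the 10 listed families in the first quantification. Pfkp, the platelet-type subunit, had 48.0, 72.6 and 54.3 TPM in replicates 1, 2 and 3. Pfkl, the liver-type subunit, had 19.5, 20.6 and 13.7 TPM, and Pfkm, the muscle-type subunit, 1.63, 1.5 and 1.70 TPM. Pfkp exceeded Pfkl by 1.70 ± 0.35 on the log2 scale, or 3.24-fold, and Pfkl exceeded Pfkm by 3.38 ± 0.39. The order was the same in 3 of 3 libraries. Pfkp held 74.7% ± 4.54 of the family's TPM, and the share was lowest in replicate 1, at 69.5%.

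Phosphofructokinase is activated by fructose 2,6-bisphosphate, which the bifunctional PFKFB enzymes make and break. Pfkfb3, whose product strongly favours synthesis, had 187, 141 and 197 TPM, more than any phosphofructokinase gene in each library. Pfkfb4 had 6.95, 6.87 and 6.84 TPM. Its highest library was 1.02 times its lowest, the smallest ratio of the 37 detected genes by TPM, but 1.18 by TMM-scaled counts (expected counts in CPM after a library scaling from edgeR). Pfkfb2 had 2.02, 1.80 and 1.85 TPM. Pfkfb3 exceeded Pfkfb4 by 4.63 ± 0.26 on the log2 scale, and Pfkfb4 exceeded Pfkfb2 by 1.81 ± 0.07. Tigar, which only breaks fructose 2,6-bisphosphate down, had 3.61 ± 0.988 TPM and lay below Pfkfb3 by 5.58 ± 0.61 on the log2 scale. Pfkfb1 had 1.04 ± 0.192 TPM.

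Aldoa held nearly all aldolase transcripts, which cleave fructose 1,6-bisphosphate into triose phosphates. Aldoa had 344, 457 and 342 TPM in replicates 1, 2 and 3, and Aldoc, the form known from brain, 7.57, 2.15 and 7.09 TPM. Aldoa was highest and Aldoc lowest in replicate 2, so their log2 ratio of 6.24 ± 1.23 had the widest SD of the 10 families. The Aldoc counts were 259, 88.0 and 384, and the exact Poisson 95% intervals of its TPM were 6.68 to 8.56, 1.72 to 2.65 and 6.40 to 7.84, so the low value in replicate 2 exceeded counting error. These intervals cover counting error only, since reads without molecular identifiers are not independent molecules. Tpi1, which interconverts the triose phosphates, had 135, 174 and 133 TPM.

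The enzymes that follow formed an abundant block. Gapdh, which reduces NAD+ while oxidising glyceraldehyde 3-phosphate, was the highest of the 41 genes in the first quantification, at 858, 1257 and 1065 TPM (ENSMUSG00000057666.18, chr6:125161715-125166467, minus strand, mm10). Pgk1, which makes the first ATP of the path, had 216, 324 and 246 TPM, and the mutase Pgam1 174, 255 and 199 TPM. Eno1, the broadly expressed enolase, had 135, 184 and 132 TPM. Each of these 4 was highest in replicate 2 and lowest in replicate 1, except Eno1, which was lowest in replicate 3. Eno3, the muscle enolase, had 0.49, 1.39 and 0.95 TPM and was not detected. Eno1 exceeded it by 7.26 ± 0.50 on the log2 scale. The nearer second enolase was Eno2, known as the neuronal form, at 34.5, 21.6 and 31.6 TPM. Eno2 was lowest where Eno1 was highest, in replicate 2, and the log2 ratio of Eno1 to Eno2 was 2.37 ± 0.62. Pgk2, Pgam2, Eno4 and Gapdhs had means under 1 TPM, and Bpgm, the bisphosphoglycerate mutase, had 3.85 ± 0.875 TPM.

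Pkm, which makes pyruvate and the last ATP of the path, had 304, 380.0 and 369 TPM in replicates 1, 2 and 3 (ENSMUSG00000032294.17, chr9:59656368-59679375, plus strand, mm10), while Pklr, the liver and red-cell gene, had a mean under 1 TPM. Splicing of mutually exclusive exons gives Pkm 2 products, the constitutively active M1 and the allosterically regulated M2. The transcript with the downstream, M2 exon, Pkm-201, held 85.2, 78.7 and 79.7% of Pkm TPM. The transcript with the upstream, M1 exon, Pkm-202, held 12.1, 18.9 and 17.8%. The M2 transcript thus led in every library, and the M1 share was lowest in replicate 1. The second quantification gave 81.0, 78.7 and 78.3% for Pkm-201 and 14.7, 18.7 and 17.8% for Pkm-202. Pkm-202 shares 8 of its 11 exons with Pkm-201 and starts 205 bases further downstream, so these shares do not rest on the M1 and M2 exons alone. The exons, each exon 9 of 11 and each 167 bases long, are shown because the shares rest in part on telling them apart. Capitals mark the 64 positions at which they differ. They share 103 of 167 positions (61.7%). They lie on the plus strand of chr9 (mm10), at chr9:59675568-59675734 for Pkm-201 and chr9:59675029-59675195 for Pkm-202, and were read from GENCODE M21 transcripts.
Pkm-201 (M2): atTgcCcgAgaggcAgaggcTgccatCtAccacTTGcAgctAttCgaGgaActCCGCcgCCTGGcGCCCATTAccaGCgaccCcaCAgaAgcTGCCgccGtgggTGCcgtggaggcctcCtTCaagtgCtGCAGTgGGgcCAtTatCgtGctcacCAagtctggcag
Pkm-202 (M1): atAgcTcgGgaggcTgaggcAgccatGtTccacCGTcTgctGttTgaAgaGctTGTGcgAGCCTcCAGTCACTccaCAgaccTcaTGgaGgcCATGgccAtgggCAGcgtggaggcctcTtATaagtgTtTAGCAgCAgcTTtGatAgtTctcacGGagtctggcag
The differences fall along the whole exon. Both exons also lie within the span of a second annotated gene on the same strand, Gm49759, which was assigned 2.85% as many counts as Pkm. Its longest match to the Pkm-201 transcript covered 201 of 2432 bases, at 95.5% identity.

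At the end of the path, Ldha transcripts far outnumbered those of Ldhb. Lactate dehydrogenase A, which favours lactate formation, had 292, 411 and 305 TPM in replicates 1, 2 and 3. Ldhb, which favours lactate oxidation, had 1.30, 4.57 and 1.92 TPM. Ldha exceeded Ldhb by 7.13 ± 0.63 on the log2 scale, 140.5-fold, and held 99.3% ± 0.339 of their sum. Both were highest in replicate 2, but Ldhb by more: its value there was 2.84 times the mean of the other libraries. The exact Poisson 95% intervals of Ldhb were 0.81 to 2.05, 3.60 to 5.75 and 1.46 to 2.50 TPM, from 19.6, 73.8 and 56.9 expected counts. Ldhc, Ldhd and Ldhal6b had means under 1 TPM.

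Lactate leaves cells through monocarboxylate transporters. Slc16a3, which encodes the lactate exporter MCT4, had 47.2, 31.2 and 26.8 TPM in replicates 1, 2 and 3. Slc16a1, which encodes MCT1, had 3.21, 8.71 and 3.69 TPM. The former was highest in replicate 1 and the latter in replicate 2, so the log2 ratio ran from 1.83 in replicate 2 to 3.84 in replicate 1. The transporter nearest to Slc16a3 was Slc16a7, which encodes MCT2, at 10.6, 10.9 and 16.1 TPM, with a log2 ratio of 1.46 ± 0.70. Bsg, which encodes basigin, the chaperone that carries MCT1 and MCT4 to the cell surface, had 208, 259.8 and 217 TPM, above any of the transporters. Slc16a8 had a mean under 1 TPM.

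In the pentose phosphate pathway the oxidative enzymes were all well expressed. G6pdx, the glucose-6-phosphate dehydrogenase that commits glucose to the pathway and makes its first NADPH, had 66.4, 87.6 and 85.6 TPM in replicates 1, 2 and 3. Pgls, the lactonase of the next step, had 32.3, 35.9 and 32.2 TPM. Pgd, which makes the second NADPH, was the highest gene of the pathway at 220.2, 205 and 248 TPM and exceeded G6pdx by 1.5 ± 0.25 on the log2 scale. H6pd, the counterpart in the endoplasmic reticulum, had 5.73 ± 1.38 TPM.

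The non-oxidative enzymes covered a wider range. Taldo1, the transaldolase, had 129, 180.4 and 145 TPM, and Tkt, the transketolase, 76.0, 82.1 and 75.4 TPM. Rpe, the ribulose-phosphate epimerase, had 53.6, 48.7 and 50.5 TPM. Rpia, the isomerase that yields ribose 5-phosphate, stood at 2.75, 5.07 and 3.80 TPM, the lowest of the 7 listed pathway genes in each library. For Tkt the leading transcript in both quantifications was Tkt-209, annotated without a coding sequence, at 73.2, 71.4 and 68.1% of the gene's TPM, against 23.4, 28.2 and 29.2% for the coding transcript Tkt-201. In the first quantification Tkt was the 1 of the 40 genes with counts whose leading transcript was not annotated as coding, and its transcripts were singled out after this was seen. Rbks, the ribokinase, had 6.94 ± 1.13 TPM, and Tktl1, Tktl2 and Shpk had means under 1 TPM.

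Pyruvate enters mitochondria through a carrier built from MPC1 and MPC2. Mpc1 had 207, 288 and 207 TPM in replicates 1, 2 and 3, and Mpc2 23.3, 36.5 and 28.8 TPM. Although the proteins work as a pair, the Mpc1 transcript exceeded that of Mpc2 by 2.99 ± 0.15 on the log2 scale, or 7.94-fold. Both were highest in replicate 2.

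Pyruvate dehydrogenase converts mitochondrial pyruvate to acetyl-CoA. Pdha1, its catalytic alpha subunit, had 24.9, 32.6 and 24.8 TPM. Its partners Pdhb, Dlat, Dld and Pdhx had means of 39.4 ± 9.69, 12.6 ± 3.86, 45.5 ± 3.85 and 6.55 ± 1.48 TPM. PDK enzymes switch the complex off by phosphorylation, and the leading gene was Pdk3 at 28.2, 18.3 and 22.4 TPM. Pdk1, a known HIF-1 target, had 6.21, 8.04 and 5.60 TPM, and Pdk2 0.38, 1.23 and 0.64 TPM. Pdk3 exceeded Pdk1 by 1.77 ± 0.53 on the log2 scale and Pdk1 exceeded Pdk2 by 3.09 ± 0.57. Pdk4, known for its induction in fasting and by fatty acids, had 0 expected counts in each library, for which 3 counts would have given at most 0.14 TPM. In the second quantification Pdk4 was listed at a mean of 0.0412 TPM. The phosphatase genes that switch the complex back on, Pdp1 and Pdp2, had 8.32 ± 1.27 and 2.84 ± 0.461 TPM, and the regulatory subunit Pdpr 2.17 ± 0.53 TPM. For other uses of pyruvate, Me2 had 6.13 ± 2.49 TPM, Gpt 1.86 ± 0.528 TPM and Gpt2 1.29 ± 0.35 TPM, while Pcx and Me1 had means under 1 TPM.

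In all 10 families with more than 1 listed isozyme, the leading gene was higher in 3 of 3 libraries and apart from the second by the 2 SD rule. The mean log2 ratio to the second listed gene ranged from 1.70 for the phosphofructokinases to 7.26 for the enolases. Unlisted genes came nearer to Eno1 and Slc16a3, with mean log2 ratios of 2.37 to Eno2 and 1.46 to Slc16a7. The leaders were Slc2a6, Hk3, Pfkp, Aldoa, Eno1, Ldha, Slc16a3, Pfkfb3, Pdk3 and Mpc1. The leader was chosen by its mean in the same 3 libraries, so this is a description of them.

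Hif1a, the oxygen-regulated subunit of HIF-1, had 50.1, 49.1 and 47.4 TPM, its highest library being 1.06 times its lowest by TPM and 1.10 times by TMM-scaled counts. Its partner Arnt had 17.7, 18.5 and 18.4 TPM. HIF-1 alpha is controlled mainly through protein stability, which was not measured here. Of the genes that govern it, the prolyl hydroxylase Egln2 had 34.8 ± 3.67 TPM and Egln1 3.96 ± 0.72 TPM. The ubiquitin ligase subunit Vhl had 14.3 ± 2.42 TPM and the asparagine hydroxylase Hif1an 6.48 ± 1.06 TPM. Epas1, Hif3a and Egln3 had means under 1 TPM. The transcript Hif1a-201 held 62.7, 56.8 and 54.6% of Hif1a TPM and Hif1a-202, which starts 6529 bases further upstream and has a coding sequence of 2430 rather than 2508 bases, 37.3, 41.5 and 43.6%.

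ACGTG is a form of the core of the DNA element that HIF-1 binds, and other forms were not searched. It was searched on both strands in RefSeq promoter windows (GRCm38.p6), from 250 bases before to 50 after each start site. It lies within CACGTG, the element of MYC and related factors, which is its own reverse complement and counts on both strands. A window was found for 40 of the 41 genes, and 20 of these 40 had the motif in at least 1 window (50%), against 21.8% of all genes with a window and 30.2% of detected genes. Counted by window, the shares were 41.4% of 58, 19.6% of 32851 and 26.2% of 9695. Among the 10 leaders, Hk3, Aldoa, Ldha, Slc16a3, Pfkfb3 and Pdk3 had a match, and Slc2a6, Pfkp, Eno1 and Mpc1 had none. Counted by place, with each CACGTG taken once, Ldha had 3, and no other of the 40 genes had more than 2 in a window. The Ldha window is shown for the 250 bases before the start site, plus strand, chr7:46845554-46845803 (GRCm38.p6), with the matches in capitals. A match of letters is not a bound site, and binding was not measured.
Ldha: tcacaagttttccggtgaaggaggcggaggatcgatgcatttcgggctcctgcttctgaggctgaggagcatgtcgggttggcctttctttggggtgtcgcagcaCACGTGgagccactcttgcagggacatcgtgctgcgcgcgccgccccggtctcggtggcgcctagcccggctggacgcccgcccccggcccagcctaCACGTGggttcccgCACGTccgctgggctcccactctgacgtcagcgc
The capitals are 2 copies of CACGTG, each of which counts on both strands, and 1 CACGT, the motif on the reverse strand.

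A list of 55 further genes of the same pathways gave the isozymes and partners named above. Of the 54 found in the tables, 25 were detected, against 17.9% of all gene entries. A mean of at least 1 TPM was reached by 27, a mean of at least 10 TPM by 9, and 11 had no counts. Of the 25 detected, 17 were highest in replicate 2, against 46.3% of all detected genes. Replicates 1 and 3 were highest for 4 each, against 30.6% and 23.2%.

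By deposited TPM, levels differed between the libraries about as much as for other genes. The highest library reached at least 1.5 times the lowest for 11 of the 37 detected genes, against 33.0% of all detected genes. These 11 were Slc2a6, Pfkl, Pfkp, Aldoc, Pgk1, Ldhb, Slc16a1, Slc16a3, Rpia, Pdk3 and Mpc2. The median ratio of highest to lowest library was 1.40 for the 37 genes and 1.34 for all detected genes. The count rested on replicates 1 and 2: it was 2 without replicate 2 and 4 without replicate 1. It was 7 by TMM-scaled counts, 3 at a ratio of 2 and 21 in the second quantification. The share over all detected genes was not computed for these other counts, so they have no background beside them. The largest ratios among detected genes were those of Aldoc, 3.52, and Ldhb, 3.52.

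The highest library was not the same for all genes. Of the 37 detected genes, 22 were highest in replicate 2 (59.5%), where 46.3% of all detected genes were highest. Replicate 1 was highest for 10 genes (30.6% of all detected genes) and replicate 3 for 5 (23.2%). Replicate 2 was also the lowest library for 11 of the 37, against 31.4%. From Gapdh to Pkm, 5 of 5 detected genes of the 41 were highest in replicate 2 by TPM, and the sum of the 6 listed genes was 1686, 2402 and 2012 TPM in replicates 1, 2 and 3. Eno2, which is not among the 41, was highest in replicate 1 and lowest in replicate 2. Slc2a1, Slc2a6, the 3 listed hexokinases and the 3 listed PFKFB genes were highest in replicate 1 or 3. For Hk2, Pfkfb2 and Pfkfb4 it was replicate 1 or replicate 3 depending on the scaling. Other genes of these steps were highest in replicate 2: Slc2a3 and Pfkfb1, neither of them detected, and the further genes Slc2a8, Slc2a9, Adpgk and Tigar. A difference between steps was not tested. The PFKFB sum was 196, 149 and 205 TPM.

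This order was checked under 4 scalings: deposited TPM, TPM without mitochondrial and ribosomal RNA genes, TMM-scaled counts, and the second quantification. By TMM-scaled counts replicate 2 was highest for 19 of the 37 (51.4%), against 38.3% of detected genes. In the second quantification it was highest for 25 (67.6%), against 64.6%, where the median of all detected genes lay 0.32 above replicate 1 in log2. Under all 4 scalings at once it was highest for 19, against 34.7% of detected genes. These were Gpi1, Pfkl, Pfkp, Aldoa, Tpi1, Gapdh, Pgk1, Pgam1, Eno1, Ldha, Ldhb, Slc16a1, Rpia, Tkt, Taldo1, Pdk1, Pdha1, Mpc1 and Mpc2. Replicate 1 was highest under all 4 for Slc2a1, Slc2a6, Aldoc, Slc16a3 and Pdk3 (5 genes, against 12.5%). Replicate 3 was highest under all 4 for Hk1, Hk3, Pfkfb3 and Pgd (4 genes, against 12.6%). For Pkm, G6pdx and Pgls, highest in replicate 2 by TPM, the highest library changed with the scaling.

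Set against the mean of replicates 1 and 3, the 37 genes had a median log2 difference of 0.22 in replicate 2 by TPM and 0.11 by TMM-scaled counts. The medians over all detected genes were 0.07 and -0.01. Single genes ranged from -1.72 for Aldoc to 1.47 for Ldhb by TPM, with -0.54 for Slc2a6, -0.33 for Hk1, 0.49 for Pgk1 and 1.31 for Slc16a1. Among neutrophil markers, S100a8 was 19.4 times and Ngp 44.2 times as high in replicate 2 as the mean of the others. S100a9 had 14.8, 237 and 12.4 TPM in replicates 1, 2 and 3, Ltf 0.32, 6.44 and 0.83, and Camp 0.35, 4.87 and 0.40. Mmp8 had 5.11, 7.02 and 3.79 TPM. The neutrophil markers Elane, Mpo, Ly6g, Retnlg and Cxcr2 were below 1 TPM in each library, and all but Cxcr2 were at 0 in replicates 1 and 3. Summed macrophage markers were lowest in replicate 2, at 21243, 16752 and 18121 TPM in replicates 1, 2 and 3. Most of this sum was Lyz2, at 15717, 10767 and 12262 TPM. Of the 8 macrophage markers, 4 were highest in replicate 1, 2 in replicate 2 and 2 in replicate 3. Adgre1, at 943, 1187 and 893 TPM, was highest in replicate 2. The part of neutrophil and macrophage markers in the order of the libraries was not tested.

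**Figure D3:**
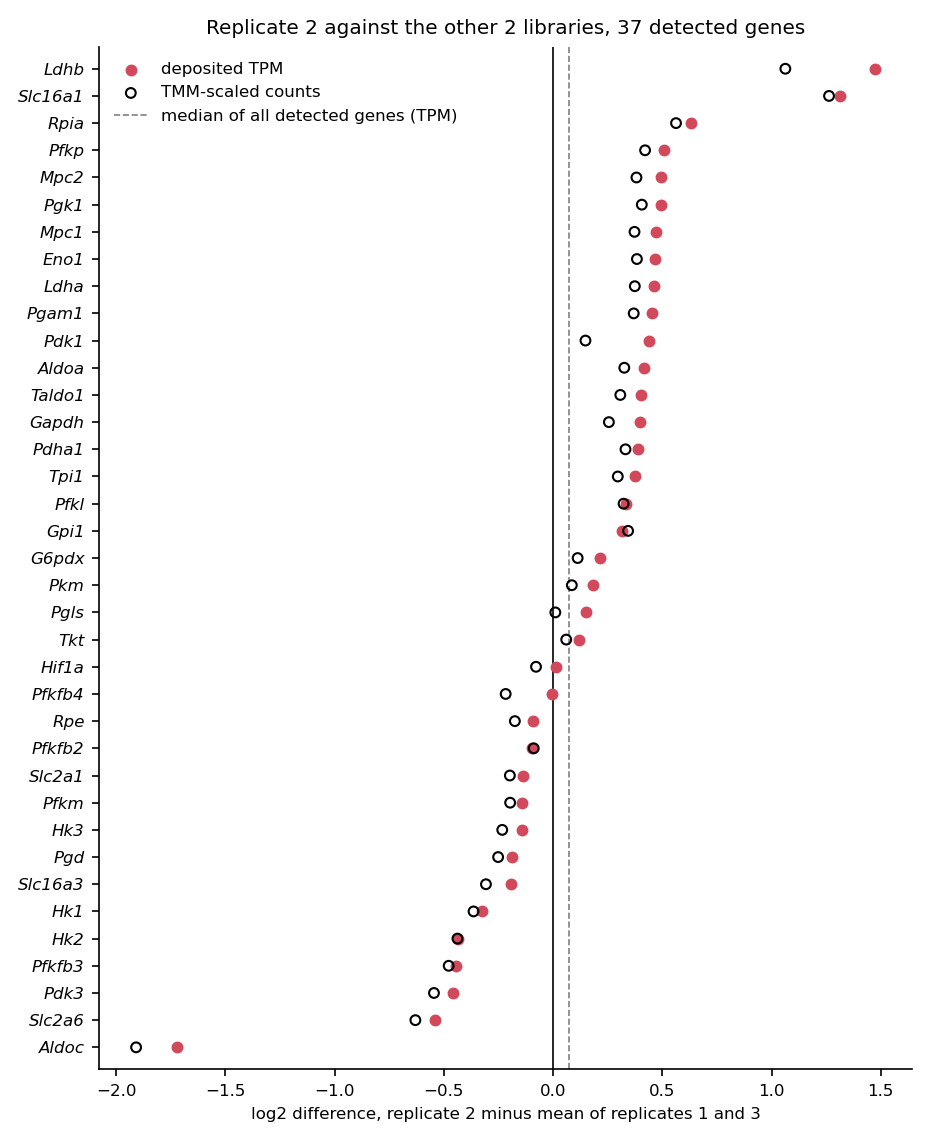
Log2 difference of replicate 2 from the mean of replicates 1 and 3 for the 37 detected genes, by deposited TPM (filled) and TMM-scaled counts (open), with the median of all detected genes by TPM dashed. Ldhb and Slc16a1 lie farthest to the right, Aldoc farthest to the left, and Gapdh, Pgk1, Pgam1 and Eno1 between 0.40 and 0.49 by TPM.

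The leading transcript changed between libraries about as often as in other genes. Among the 36 detected genes with at least 2 annotated transcripts, the transcript with the largest share was the same in 3 of 3 libraries for 32, against 86.0% of such genes overall. It also led in the second quantification for 34 of the 36, against 89.8%. It held over 90% of the gene's TPM for 18 of the 36, against 33.0%, as for Ldha-202 with 99.1, 98.9 and 98.7%. Of the 40 genes with counts, the leader changed between libraries for 5, Pfkm, Aldoc, Eno3, Slc16a3 and Pfkfb3. Pfkm and Eno3 did so on few counts: Pfkm had 73.0, 92.0 and 138 and Eno3 11.0, 34.0 and 33.0 expected counts in all.

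In the other 3, no transcript held most of the level in every library. Slc16a3-201 held 47.9, 33.8 and 32.0% of Slc16a3 TPM in replicates 1, 2 and 3, and Slc16a3-207, which starts 573 bases further downstream and has a shorter coding part, 33.3, 40.2 and 38.5%. Aldoc-202 held 37.7, 70.3 and 34.4% and Aldoc-201 55.2, 29.7 and 44.5%. For Pfkfb3, several transcripts shared the level, with 35.4, 27.0 and 37.7% for the leading transcript and 26.5, 37.3 and 26.2% for Pfkfb3-220. The latter starts 51976 bases upstream of the leading one. In the second quantification Pfkfb3-220 held only 3.69, 3.56 and 3.02%, so its share depended on the method.

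Hk1 and Pdk1 had another leader in the second quantification. For Hk1, Hk1-202 held 44.3, 53.3 and 43.8% in the first and 19.4, 30.2 and 24.4% in the second. Hk1-201, which starts 17820 bases further upstream, held 30.9, 23.2 and 31.5% and 33.9, 20.5 and 26.8%. For Pdk1, the coding transcript Pdk1-201 held 52.3, 58.4 and 74.2% in the first but 25.0, 24.4 and 35.1% in the second, where Pdk1-208, without a coding sequence, held 52.7, 34.1 and 40.1%. The gene level of Pdk1 was 6.21, 8.04 and 5.60 TPM in the first and 6.10, 11.1 and 6.87 TPM in the second, so less than this came from the coding transcript in either.

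**Figure D4:**
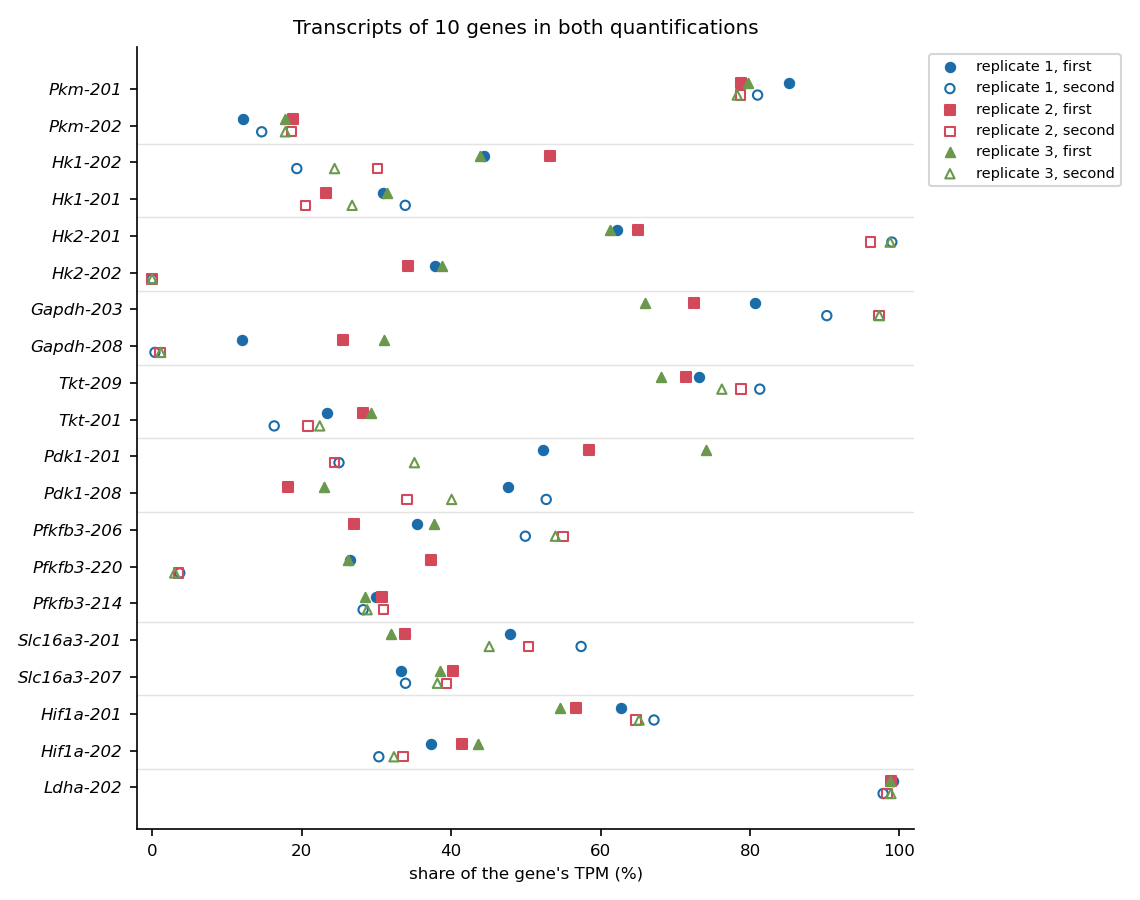
Share of each gene's TPM (percent) held by 20 transcripts of 10 genes in the first (filled) and second (open) quantification of replicates 1 (circles), 2 (squares) and 3 (triangles). Both have the same leading transcript for Pkm, Tkt, Hif1a and Ldha, and the shares lie apart for Hk2-202, Gapdh-208, Pfkfb3-220 and Pdk1-201.

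The level of Gapdh depended in part on 1 short transcript. Gapdh-208, of 483 bases and without a coding sequence, held 12.1, 25.6 and 31.0% of Gapdh TPM in the first quantification and 0.373, 1.04 and 1.14% in the second. The coding transcript Gapdh-203 alone had 692, 912 and 702 TPM against 535, 512 and 596 TPM for the leading Hk3 transcript, Hk3-201, and 797, 444 and 503 TPM for that of Slc2a6, Slc2a6-201, which was the highest of the 3 in replicate 1. In the second quantification the gene levels were 516, 926 and 666 TPM for Gapdh, 570.3, 671 and 696 TPM for Hk3 and 604, 423 and 437 TPM for Slc2a6, so that Gapdh was the highest of the 3 in replicate 2 only. Gapdh is often used as a reference gene, and relative to it Slc2a6 lay at a log2 TPM ratio of -0.01 in replicate 1 but -1.44 in replicate 2. Gapdh transcripts were singled out after their values were seen.

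Reads of some of the 41 genes can also match near-identical genes, and the deposited counts divide such reads by a model. Genes with a transcript at least 95% identical to a member's leading transcript over at least 100 bases were sought. Gapdh had 79 such genes, which together were assigned 7.63% as many counts as Gapdh. Among them the processed pseudogene Gm10359 was assigned 120.0 counts in replicate 1 and 1161 and 1087 in replicates 2 and 3. Pgk1 had the processed pseudogene Gm5537, identical over 1252 bases, with 6.43% as many counts. For Eno1 the retrocopy Eno1b had 2.12%, and for Mpc1 the retrocopy Mpc1-ps had 2.91%. For Ldhb, Gm5514 had 17.2% over the 3 libraries pooled. Per library it had 11.4, 6.24 and 8.15 counts, against 19.6, 73.8 and 56.9 for Ldhb in replicates 1, 2 and 3. Relative to its count, the level of Ldhb is thus least certain in replicate 1, which also bears on its ratios between libraries. The posterior SD that the model gave the Ldhb count was small, at 0.49, 0.49 and 0.39 counts in replicates 1, 2 and 3. For Gpi1 the match was Mrpl27, a mitochondrial ribosomal protein gene with 39.3% as many counts, but over 101 of the 2884 bases of the Gpi1 transcript and at 95.1% identity. In the second quantification Eno1b had at most 6.51 counts in a library and Mpc1-ps at most 3.19. The near-identical genes of Gapdh together had 1975, 446 and 313 counts there in replicates 1, 2 and 3. In the first they had 1138, 2167 and 2085, so their library order depended on the quantification. Those of Pgk1 together had 362, 77.9 and 1.5e-04 counts in the second and 551, 710 and 653 in the first. The genes named Gm were chosen after their values were seen.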

How the data were processed

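RNA of 3 libraries of 1 group was analysed from the submitters' tables. The readme of each sample names assembly mm10 and GENCODE annotation M21. Aligner and programs: not given in the sources used here. The first quantification, from a transcriptome alignment, gives, per the file headers, expected counts, TPM and, per transcript, its percent of the gene's TPM. The second, deposited without an alignment, gives estimated counts and TPM per transcript, which were summed per gene. TPM is scaled to a constant total per library, so a rise of other genes lowers it. Counts are not scaled between libraries and were scaled here by TMM (edgeR 4.0.16, R 4.3.3).

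Genes were matched by symbol, and the second Aldoa entry, with 0 counts, was left out. Ratios of isozymes are log2(TPM + 0.1). Near-identical genes were sought with blastn 2.17.0. Other steps used matplotlib 3.10.9, scipy 1.17.1, pandas 2.3.3 and numpy 2.4.6 under Python 3.11.15. The measures of variation between libraries and of the highest library were tested on simulated counts with known answers. These held counting error only and planted changes larger than the 1.5-fold cut. The calls of leaders, steps and transcripts were not simulated.

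The 41 genes and all lists were chosen with earlier results of these data known. All 41 are named; of the further pathway genes those with a mean of at least 1 TPM are given with values. Retrocopies are named at 1% or more of a gene's counts. Transcripts are given where the leader differs between libraries or quantifications, and for Pkm, Hk1, Ldha, Pfkfb3 and Hif1a.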

Additional observations from a re-analysis of the deposited data

How the results depend on the processing

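Each of 16 results was recomputed under its alternatives, 79 values in all: 69 stayed within 1.5 times the count, or within 1 SD of the value, 10 moved further and 0 changed sign. The number of genes varying 1.5-fold between libraries, 11, moved most: it was 7 by TMM-scaled counts, 3 at a ratio of 2 and 21 in the second quantification, and leaving out 1 library gave 2 to 10. Among these counts, the share over all detected genes was computed for the 11 only. The summed TPM of 5788 became 6302 without mitochondrial and ribosomal RNA genes and 4641 in the second quantification. The log2 ratio of Hk3 to Hk1 was 2.64 in the second quantification. That of Eno1 to Eno3 was 6.29 with a pseudocount of 1 and 6.47 in the second quantification. The cause of these shifts was not tested. In all 10 families the leader stayed ahead in each alternative run. The library scalings for the count highest in replicate 2, and the 2 alternatives for the order of steps, each with 5 of 11 neighbours apart, were added after the data had been seen. No paired analysis was possible because there was 1 group. At 26.6e6 to 48.4e6 counts, genes under 1 TPM rest on few reads.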
